A study of Mus musculus with 16 samples.

Results

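Epidermal carcinomas that had lost p53 together with pRb were compared with carcinomas that had lost p53 alone, by profiling RNA of 1 tumor per Affymetrix MOE430 2.0 array. The pRbp53 tumors (n = 5) arose in k14Cre;p53loxP/loxP;pRbloxP/loxP mice and the p53 tumors (n = 7) in k14Cre;p53loxP/loxP mice, so both groups carried k14Cre and the floxed p53 alleles and differed by the floxed pRb alleles. All mice were on the FVB background, and neither group was labelled with a treatment or an age. These 12 tumors were taken by their titles out of 16 samples in all, the other 4 being control skin, which is given beside the tumors as the level of the normal tissue. Cre is driven by the keratin K14 promoter, which is active in the basal layer of stratified epithelia, so stroma, blood vessels and immune cells in the tumors kept both genes. The labels do not say whether each tumor came from a separate mouse, and p-values then measure only the spread between these samples.

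Histology was unevenly spread over the genotypes. Of the 5 pRbp53 tumors, 4 were spindle cell carcinomas (tumors 1, 2, 3 and 5) and 1 was mixed (tumor 4). Of the 7 p53 tumors, 3 were poorly differentiated (tumors 2, 4 and 5), 2 were mixed (tumors 1 and 7), 1 was undifferentiated (tumor 3) and 1 was a spindle cell carcinoma (tumor 6). No pRbp53 tumor was poorly differentiated, so genotype and that histology cannot be told apart across the whole comparison. The differences of the called genes are therefore given also from a model that adds the histology class (poorly differentiated, mixed, or undifferentiated and spindle). Their differences among the 4 pRbp53 and 2 p53 tumors that were undifferentiated or spindle follow after the genes.

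The retinoblastoma protein pRb binds E2F transcription factors and holds back the genes that E2F switches on at the entry into S phase, among them the subunits of the replicative helicase, cyclin E and the enzymes of nucleotide synthesis. Cyclin D with its kinases inactivates pRb by phosphorylation, and CDK inhibitors oppose this. p53 acts beside this circuit by switching on genes of cell cycle arrest and apoptosis, including Cdkn1a and its own inhibitor Mdm2. In skin both proteins limit the growth of keratinocytes, and carcinomas of skin may pass from a squamous form to spindle cells that lose keratins and junctions.

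The arrays were alike in scale, with medians of 5.63 to 5.76 on the log2 scale. Correlations between tumors over all probesets ran from 0.917 to 0.967 within pRbp53 tumors, from 0.882 to 0.971 within p53 tumors and from 0.877 to 0.959 between the genotypes. The p53 tumor 7 stood apart in RNA quality, with a 3′ minus 5′ actin signal of 1.67 log2 units against 0.21 to 0.68 in the other tumors. The label of squamous cell carcinoma was checked against keratins. Krt5 and Krt14, the keratin pair of basal keratinocytes, had means of 12.90 and 13.09 in control skin. Krt5 lay between 5.05 and 5.72 in the 5 pRbp53 tumors, and between 4.76 and 13.67 in the p53 tumors. Basal keratins were thus low in most pRbp53 tumors, the mixed pRbp53 tumor 4 having Krt14 at 9.32. Other tissues were visible in some tumors. Csn2, a milk protein, was above 5 in 4 p53 tumors (2, 3, 4 and 5) and in 0 pRbp53 tumors, but also in control skin 3 (9.83), and skeletal muscle genes were high in pRbp53 tumors 2 and 5.

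Rb1, the gene floxed in the pRbp53 mice, was lower on average in the pRbp53 tumors, but the groups overlapped and the difference did not pass the test. Its brighter probeset read 7.93, 7.94, 7.67, 7.10 and 7.85 in pRbp53 tumors 1 to 5, and 7.57, 8.20 and 8.50 as the lowest, median and highest of the p53 tumors. The mean was 7.70 ± 0.35 (SD, n = 5) against 8.06 ± 0.33 (SD, n = 7), and control skin lay higher at 9.26 ± 0.25 (SD, n = 4). The difference was −0.36 (SE 0.19, 95% interval −0.79 to 0.06, limma adjusted p = 0.601), and −0.27 with histology class in the model. Among undifferentiated and spindle tumors it was −0.00, and among mixed tumors −0.79. The second probeset was dim in both groups, at a mean of 3.82 in each. Where these probes lie relative to the floxed exon was not known from the sources used here, and stroma keeps the gene, so Rb1 signal does not check the genotype labels. In bulk samples fewer cells of a type and less RNA per cell cannot be told apart.

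The genes around Rb1 were read for a wider loss, and single genes among them did not pass the test. Of the 200 genes measured nearest to it in gene order, 100 on each side, 0 passed an adjusted p of 0.1 in limma and 0 in the methods' t-test, while 13 were higher and 3 lower at an unadjusted p of 0.05. Over all 18145 genes on a chromosome, 0.281% had a called probeset. At 1 probeset per gene, the methods' t-test called 12 of 18193 genes, and 4.82% were higher and 5.79% lower at an unadjusted p of 0.05. With shares of calls this small, 0 calls are likely for any 200 genes. The median difference of the 200 genes was 0.10, against −0.01 over all genes, and their differences ran from −1.74 (Hr) to 2.17 (Gfra2).

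**Figure D1:**
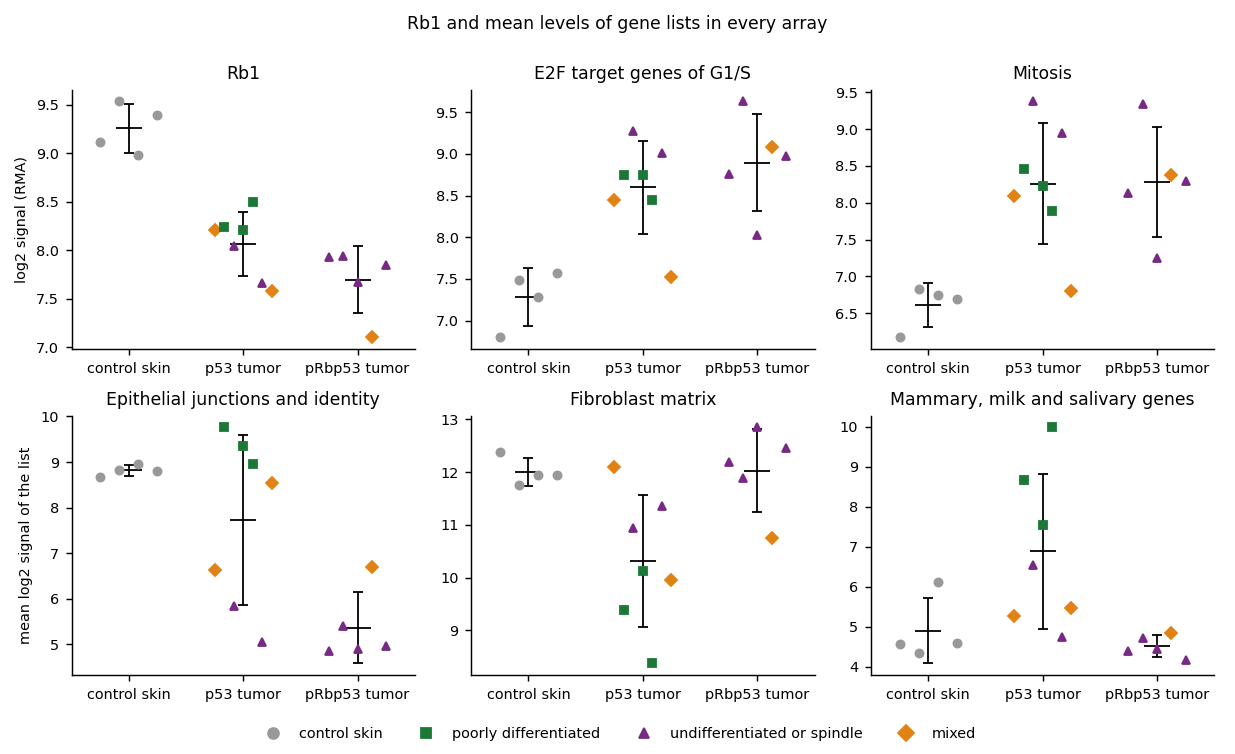
Log2 signal of Rb1 and mean log2 signal of 5 gene lists (vertical axes), with 1 point per array by group, histology class by symbol, and bars for the mean ± SD. Rb1 lay between 7.10 and 7.94 in the 5 pRbp53 tumors and between 7.57 and 8.50 in the 7 p53 tumors, so the groups overlapped.

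Across the array few probesets separated the genotypes. Of 45037 probesets, 89 passed an adjusted p of 0.1, which is 0.198%, with 57 higher and 32 lower in pRbp53 tumors. At an adjusted p of 0.05 there were 57. The groups did not overlap at 0.913% of all probesets, and at 85 of the 89 called ones. Among the 89, 68 had a single gene symbol and 21 had none, and the 68 belonged to 51 genes, 29 of them higher and 22 lower. The probesets nearest to the limit were Inpp5f at an adjusted p of 0.0877, Mdm2 at 0.0943 and Iffo1 at 0.0977 inside it, with Oga at 0.1005 and Cisd2 and a second probeset of Zfp52 at 0.102 outside. The size of the list hung on single tumors. It came to 47 without p53 tumor 2, 53 without pRbp53 tumor 3 and 55 without pRbp53 tumor 5. It came to 152 without p53 tumor 1, 184 without pRbp53 tumor 4 and 216 without p53 tumor 6. Of 32 named genes that passed, 13 passed in each of the 12 fits that left out 1 tumor: Zfp942, Zfp945, Riok3, Hoxb6, Ebf1, Runx1t1, Kcnma1, Zdhhc14, Glo1, Mnd1, Klhl42, Itga6 and Ywhaz. The other 19 lost the call in at least 1 of these fits, down to Mdm2, which passed in 3. All values below are log2 signal; those of the p53 tumors are the lowest, median and highest of 7, and those of the pRbp53 tumors stand in the order of tumors 1 to 5.

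**Figure D2:**
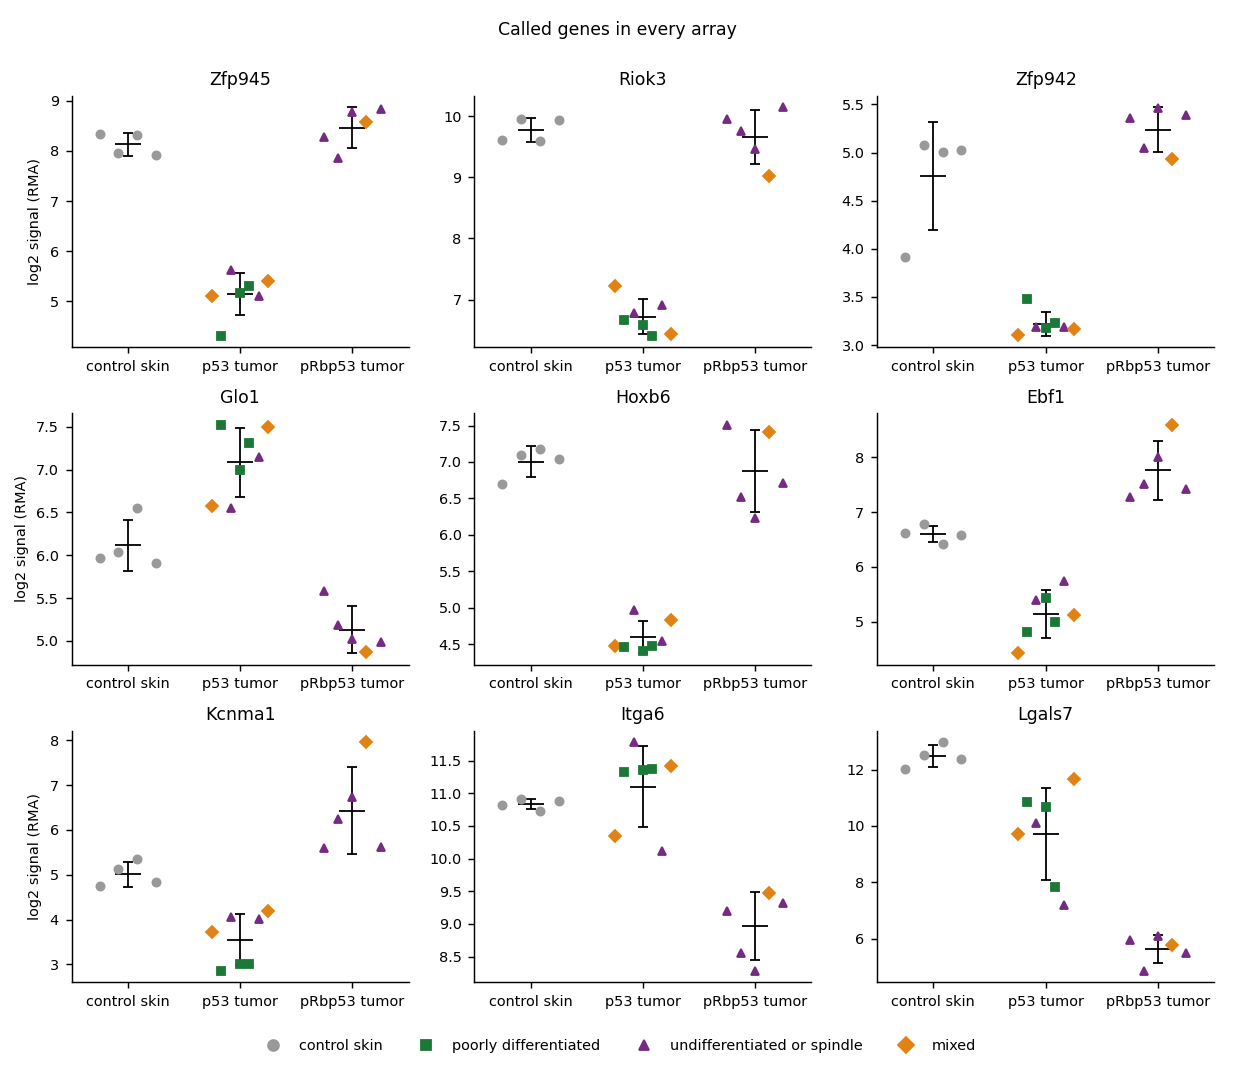
Log2 signal (vertical axes) of 9 called genes in each control skin sample, p53 tumor and pRbp53 tumor, with histology class by symbol and bars for the mean ± SD; the axes do not start at 0. Zfp942 lay between 4.93 and 5.46 in the pRbp53 tumors, none of them poorly differentiated, and between 3.10 and 3.48 in the p53 tumors.

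The genes with the smallest p-values were higher in pRbp53 tumors and included a set of zinc finger genes. Zfp942, a member of the KRAB zinc finger family of DNA-binding repressors, read 3.10, 3.19 and 3.48 in p53 tumors and 5.36, 5.05, 5.46, 4.93 and 5.39 in pRbp53 tumors. No p53 tumor came near the lowest pRbp53 tumor, and the difference was 2.02 (SE 0.11, adjusted p = 1.38e-05). With histology class in the model it was 2.02 (adjusted p = 0.000536), and 2.13 among undifferentiated and spindle tumors. Zfp945, of the same family, read 4.32, 5.17 and 5.63 against 8.27, 7.86, 8.78, 8.57 and 8.84. The groups lay apart by more than 2 log2 units, with a difference of 3.32 (SE 0.23, adjusted p = 7.43e-05), and 3.16 with histology (adjusted p = 0.00421). For both genes the other probesets moved little, between −0.47 and 0.27, so the rise was seen at 1 of 3 probesets. Zfp52, a further zinc finger gene, read 5.60, 6.26 and 7.02 against 8.71, 8.86, 8.70, 7.28 and 7.89. Its groups did not overlap, the mixed tumor 4 being the lowest, and the difference of 2.02 (SE 0.32, adjusted p = 0.0376) was 1.62 with histology (adjusted p = 0.233). Zfp40, looked up after its values were seen because it is the neighbour of Zfp945, was called at 4 of its 4 probesets, with differences of 0.78 to 2.06. The probeset with the smallest p was dim, with means of 3.10 in p53 and 4.01 in pRbp53 tumors. Its difference was 0.91, with histology 1.06 (adjusted p = 0.0126), and among undifferentiated and spindle tumors 1.07.

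Riok3, an atypical kinase involved in ribosome maturation, was likewise far apart. It read 6.41, 6.67 and 7.22 in p53 tumors and 9.96, 9.75, 9.46, 9.02 and 10.15 in pRbp53 tumors. The pRbp53 tumors lay on both sides of the mean of control skin (9.78), and the difference was 2.95 (SE 0.20, adjusted p = 7.43e-05), or 2.72 with histology (adjusted p = 0.00421). Its other 3 probesets gave −0.83, −0.15 and 0.26, so the direction differed between probesets of the gene. Probesets without a gene symbol were among the largest separations, and were picked out after their values were seen. 1458719_at read 7.21, 7.66 and 8.22 in p53 tumors and 3.90, 4.15, 4.19, 3.95 and 3.87 in pRbp53 tumors, a difference of −3.65 (adjusted p = 4.02e-06; with histology −3.48, adjusted p = 1.05e-05). It is at 4.06 in control skin, so the p53 tumors were the group that stood apart. 1443893_at showed the same form, with a difference of −3.32 (adjusted p = 7.43e-05; with histology −3.10, adjusted p = 0.00421). 1447360_at went the other way, at 3.27, 3.44 and 4.26 against 8.90, 7.67, 7.43, 9.45 and 7.98, a difference of 4.68 (adjusted p = 0.000141; with histology 4.86, adjusted p = 0.00421).

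Ebf1, Hoxb6 and Runx1t1, which encode transcriptional regulators, rose. Ebf1, a factor of B cell and adipocyte development, read 4.42, 5.13 and 5.74 against 7.27, 7.52, 8.01, 8.59 and 7.42. Every pRbp53 tumor was above every p53 tumor, the mixed tumor 4 being the highest, and the difference was 2.63 (SE 0.27, adjusted p = 0.00286). It stayed called with histology in the model, at 2.60 (adjusted p = 0.0424), and 4 of its 5 probesets were called, the fifth giving 0.04. Hoxb6, a Hox gene of trunk patterning, read 4.40, 4.48 and 4.97 against 7.51, 6.52, 6.23, 7.42 and 6.71. The p53 tumors were close together and below control skin at 7.0, and the difference of 2.28 (SE 0.22, adjusted p = 0.00203) was 2.24 with histology (adjusted p = 0.0257). Runx1t1, a transcriptional corepressor of the ETO family, read 3.12, 3.41 and 5.01 against 6.36, 5.64, 7.35, 6.55 and 5.80. The highest p53 tumor was the spindle tumor 6, and the difference of 2.76 (SE 0.36, adjusted p = 0.0128) was 2.48 with histology (adjusted p = 0.15).

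In the other direction, a pair of Iroquois homeobox genes and a Groucho corepressor fell. Irx1 read 8.46, 9.11 and 10.42 in p53 tumors and 8.19, 6.93, 6.44, 6.10 and 6.63 in pRbp53 tumors. pRbp53 tumor 1 came within 0.3 of the lowest p53 tumor, and the difference was −2.48 (SE 0.42, adjusted p = 0.0564), or −2.04 with histology (adjusted p = 0.156). Irx5 read 6.92, 8.42 and 9.46 against 6.31, 5.64, 5.92, 6.65 and 5.77. Its groups did not overlap, with a difference of −2.43 (SE 0.41, adjusted p = 0.0564) that shrank to −1.58 with histology and stayed called (adjusted p = 0.0639). Tle1, a corepressor that many repressors recruit, read 7.93, 8.59 and 9.0 against 7.07, 7.66, 6.69, 7.70 and 7.33, a difference of −1.30 (SE 0.21, adjusted p = 0.0476) and −1.17 with histology (adjusted p = 0.272).

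Imprinted genes, which are expressed from 1 parental allele, gave a pair of calls among the higher genes. Meg3, a maternally expressed long noncoding RNA, read 7.78, 8.63 and 9.26 against 12.75, 9.61, 10.91, 11.10 and 11.71. The spindle tumor 1 was the highest and the spindle tumor 2 close to the p53 tumors, so the pRbp53 tumors spread over 3.1 log2 units. The difference was 2.75 (SE 0.46, adjusted p = 0.054), or 2.57 with histology (adjusted p = 0.289), and all 11 probesets had the same direction, 2 of them called. Sgce, a paternally expressed sarcoglycan, read 3.45, 3.74 and 3.89 against 7.07, 4.51, 5.86, 5.54 and 5.77. Its order of the pRbp53 tumors had tumor 1 highest and tumor 2 lowest, as for Meg3, with a difference of 2.08 (SE 0.33, adjusted p = 0.0393) and 2.05 with histology (adjusted p = 0.232). Rian, a further maternally expressed RNA of the Meg3 region and a member of the list of imprinted genes, was picked out after its values were seen. It read 4.77, 5.30 and 5.91 against 9.95, 6.04, 6.89, 6.79 and 8.08. Its groups did not overlap, but at an adjusted p of 0.235 it did not pass.

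Lgals7, Itga6 and Pard3, which are known from epithelial cells, fell. Lgals7, a galectin of stratified epithelia, had the largest fall among called genes with a symbol, from 7.19, 10.12 and 11.65 in p53 tumors to 5.97, 4.87, 6.12, 5.78 and 5.48 in pRbp53 tumors. The p53 tumors were widely spread (9.72 ± 1.63, SD, n = 7) and control skin was at 12.47. The difference of −4.08 (SE 0.71, adjusted p = 0.0628) was −3.66 with histology (adjusted p = 0.294). Itga6, the integrin subunit that anchors basal keratinocytes in hemidesmosomes, read 10.11, 11.35 and 11.78 against 9.19, 8.56, 8.28, 9.48 and 9.31. Both its probesets were called, the groups did not overlap, and the difference of −2.13 (SE 0.32, adjusted p = 0.0306) was −1.87 with histology (adjusted p = 0.233) and −2.11 among undifferentiated and spindle tumors. Pard3, a scaffold of the polarity complex at tight junctions, read 5.61, 6.41 and 7.77 against 4.74, 4.38, 4.20, 4.61 and 4.63, a difference of −2.06 (SE 0.34, adjusted p = 0.0475) and −1.84 with histology (adjusted p = 0.281).

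Glo1, Mnd1, Klhl42, Pnpt1, Ywhaz and Mtm1, which differ in function, also fell. Glo1, glyoxalase I, which detoxifies methylglyoxal, read 6.55, 7.14 and 7.52 against 5.58, 5.19, 5.03, 4.88 and 4.99. Its 4 probesets were all called, from −1.95 to −1.19, and the difference of −1.95 (SE 0.20, adjusted p = 0.00286) was −1.82 with histology (adjusted p = 0.0424). Mnd1, a factor of meiotic recombination, read 5.92, 6.43 and 6.58 against 5.13, 5.09, 4.96, 4.50 and 4.92, and stayed called with histology at −1.40 (adjusted p = 0.0265; without histology −1.38, SE 0.15, adjusted p = 0.00411). Klhl42, a substrate adaptor of a ubiquitin ligase, fell by 1.15 (SE 0.14, adjusted p = 0.00898; with histology −1.22, adjusted p = 0.0503) with p53 tumors at 7.25, 7.68 and 7.95 and pRbp53 tumors at 6.75, 6.54, 6.45, 6.26 and 6.44. For these genes each pRbp53 tumor was below each p53 tumor. Pnpt1, a mitochondrial polynucleotide phosphorylase, fell by 1.71 (adjusted p = 0.0467; with histology −1.90, adjusted p = 0.0545) at 1 of 3 probesets, the others giving 0.43 and 0.14. Ywhaz, an adaptor of phosphorylated proteins, fell by 1.43 (adjusted p = 0.0321; with histology −1.35, adjusted p = 0.15) at 1 of 7 probesets, the others lying between −0.57 and 0.20. Mtm1, the phosphoinositide phosphatase myotubularin, read 8.99, 10.41 and 11.02 against 5.94, 8.35, 6.43, 8.37 and 6.15. Its pRbp53 tumors fell into a higher pair (tumors 2 and 4) and a lower set, with a difference of −3.02 (SE 0.55, adjusted p = 0.0811) and −2.34 with histology (adjusted p = 0.345). Mtm1 was called at 1 of 3 probesets, the others giving −3.27 and −0.28.

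Tpd52, 2310030G06Rik and Fgd6 completed the lower genes of the naming rule. Tpd52, a protein of vesicle trafficking, differed by −1.18 (adjusted p = 0.0564; with histology −1.31, adjusted p = 0.0665). The uncharacterized 2310030G06Rik differed by −2.85 (adjusted p = 0.0373; with histology −2.18, adjusted p = 0.188). Fgd6, an exchange factor for small GTPases, differed by −1.48 (adjusted p = 0.0695; with histology −1.25, adjusted p = 0.335), and its groups overlapped because the mixed pRbp53 tumor 4 was at 6.95 while the lowest p53 tumor was at 6.83.

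Kcnma1, Zdhhc14, Mageh1, Prrg3, Ddx43 and Qk completed the higher genes of the naming rule. Kcnma1, the calcium-activated BK potassium channel, read 2.86, 3.72 and 4.18 against 5.60, 6.24, 6.73, 7.96 and 5.62. The mixed pRbp53 tumor 4 was the highest, and the difference of 2.88 (SE 0.42, adjusted p = 0.0246) was 2.67 with histology (adjusted p = 0.0575) and 2.01 among undifferentiated and spindle tumors. Zdhhc14, a palmitoyltransferase, read 4.86, 5.37 and 6.31 against 8.45, 7.55, 8.58, 8.04 and 6.98, a difference of 2.45 (SE 0.31, adjusted p = 0.0111) and 2.25 with histology (adjusted p = 0.142). Mageh1, of the MAGE family, read 3.98, 5.24 and 6.02 against 7.41, 7.22, 8.51, 6.90 and 7.85, a difference of 2.50 (SE 0.38, adjusted p = 0.0335) and 2.09 with histology (adjusted p = 0.23). In all 3 genes the lowest pRbp53 tumor was above the highest p53 tumor. Prrg3, a membrane protein with a Gla domain, differed by 1.95 (adjusted p = 0.0758; with histology 2.21, adjusted p = 0.193), and Ddx43, a helicase of the germ line, by 1.63 (adjusted p = 0.0476; with histology 1.40, adjusted p = 0.279). Qk, an RNA-binding regulator of splicing, differed by 2.02 (adjusted p = 0.0521; with histology 1.55, adjusted p = 0.203), and its 7 probesets had the same direction, 1 of them called.

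Mapk14, a stress-activated MAP kinase, was looked up after its values were seen because of its place in the genome. It read 6.53, 6.93 and 7.59 in p53 tumors and 8.57, 8.50, 8.65, 8.67 and 8.56 in pRbp53 tumors. The pRbp53 tumors were close to each other and to the mean of control skin (8.71), and the difference was 1.59 (SE 0.16, adjusted p = 0.00286), or 1.71 with histology (adjusted p = 0.00421) and 1.95 among undifferentiated and spindle tumors. Its other 5 probesets lay between −0.06 and 0.32. Across the 51 called genes, 14 had a single probeset and 37 had several. Of the 37, 29 had all probesets in the same direction and 8 had at least 1 in the other, and more than 1 probeset was called for 9 genes.

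Called genes were unevenly placed along the chromosomes, as a description of gene order. Chromosome 17 held 8 of them among 839 genes measured (0.954%), against 43 of 17306 (0.248%) on the other chromosomes. In gene order the 8 were Zdhhc14, Qk, Zfp52, Zfp942, Zfp945, Zfp40, Mapk14 and Glo1, of which Glo1 was lower and the other 7 higher. They stood at ranks 10, 34, 88, 95, 102, 103, 272 and 300 of the genes measured on the chromosome. The stretch from the first to the last of them held 291 genes, with 2.75% called. Its bounds were taken from the calls. The share inside is raised by this choice, and 0 calls among the 539 genes beyond it was fixed by it. The median difference over the stretch was 0.03, against 0.02 over the 539 genes beyond it and −0.02 on the other chromosomes, and the median size of a difference was 0.193, 0.161 and 0.193. Of the chromosomes with the next most calls, chromosome 11 had 6 (0.413%), and chromosomes 6 and 7 had 5 each (0.502% and 0.352%). Called genes that were close neighbours elsewhere were Tomm20 and Pard3, 2 steps apart on chromosome 8 and both lower, Mtm1 and Prrg3, 6 steps apart on X and in opposite directions, and Pnpt1 and Rtn4, 7 steps apart on chromosome 11 and in opposite directions. Tomm20 and Rtn4 were picked out for this place after their values were seen.

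**Figure D3:**
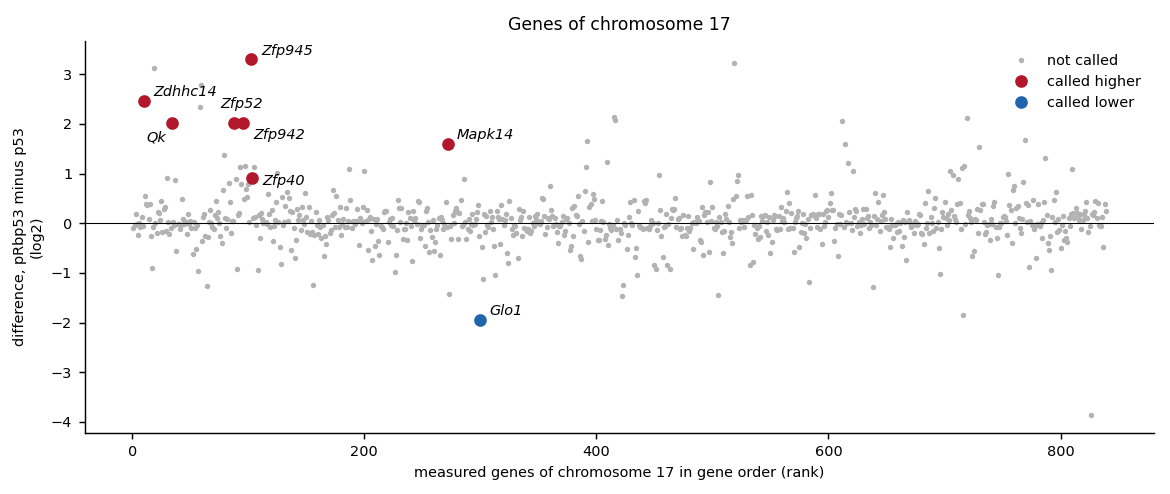
Log2 difference of pRbp53 minus p53 tumors (vertical axis) for each gene measured on chromosome 17, in gene order (horizontal axis, rank), with called genes in color and named. The 8 called genes all lie between ranks 10 and 300, while most other genes lie close to 0 and some with large differences were not called.

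Histology moved the calls more than the directions. With histology class in the model 54 probesets were called, 0.120% of those tested, and 33 of the 89 were among them. All 89 kept their direction, which is likely for probesets chosen on these same tumors. Of the 51 genes, 16 still passed, and the difference was smaller for 37 of them, with the ratio to the difference without histology running from 0.651 to 1.26 around a median of 0.928. Among the 4 pRbp53 and 2 p53 tumors that were undifferentiated or spindle, 72 probesets were called, 19 of the 89 among them, and 87 of the 89 had an unadjusted p under 0.05 in the same direction. The 89 had been chosen on all 12 tumors, so this is not an independent check. Over all 45037 probesets, 5208 had an unadjusted p under 0.05 in either direction among the undifferentiated and spindle tumors. Among the higher genes the difference there was 3.08 for Zfp945, 2.98 for Riok3, 2.22 for Zfp52, 1.99 for Ebf1, 1.98 for Hoxb6 and 2.14 for Runx1t1. It was 2.59 for Meg3, 2.11 for Sgce, 2.05 for Zdhhc14, 2.18 for Mageh1, 1.38 for Qk, 1.60 for Ddx43 and 2.84 for Prrg3. For Prrg3 this was more than the 1.95 over all 12 tumors, and for Qk less than its 2.02. Among the lower genes it was −3.05 for both Lgals7 and Mtm1, −2.24 for 2310030G06Rik, −1.72 for Irx1, −1.58 for Irx5, −1.28 for Tle1 and −1.85 for Pard3. It was −1.65 for Glo1, −1.26 for Mnd1, −1.01 for Klhl42, −2.09 for Pnpt1, −1.27 for Ywhaz, −1.16 for Tpd52 and −1.78 for Fgd6. That fit rests on 2 p53 tumors, of which tumor 3 also carried milk RNA. Without the 4 p53 tumors high in Csn2, a split chosen after seeing the data that left 3 p53 against 5 pRbp53 tumors, 7 probesets were called, 6 of the 89 among them, and all 89 had the same direction. Zfp942 and Zfp945 (adjusted p = 0.0166 each) and Riok3 (adjusted p = 0.084) were the named genes that still passed there. The split went by Csn2 only, and Csn3 was at 4.35, 6.84 and 10.01 in the p53 tumors it kept (1, 6 and 7).

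**Figure D4:**
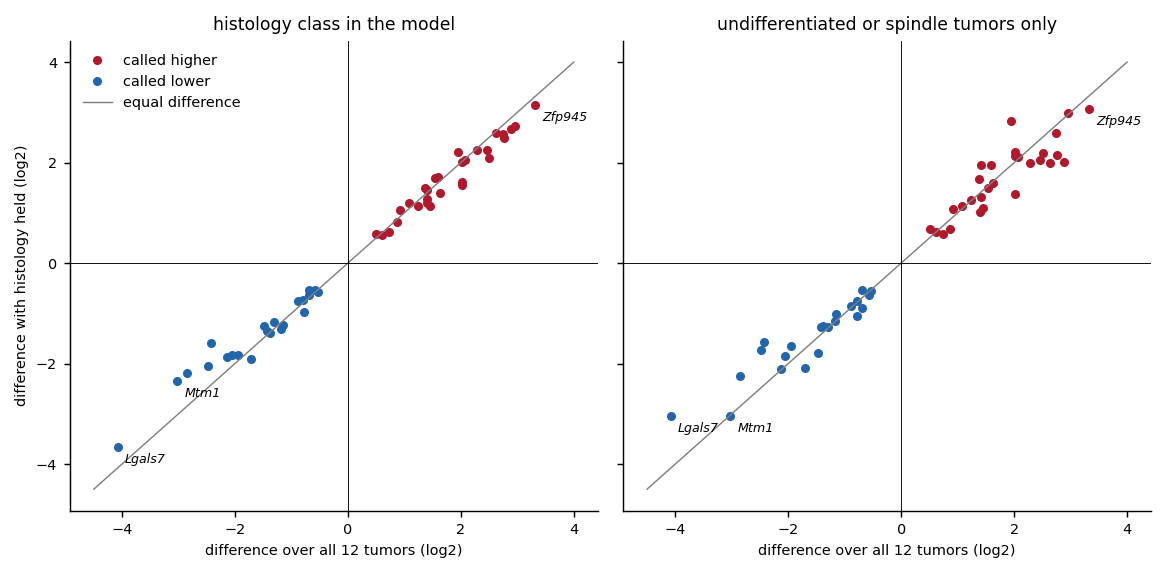
Differences of the 51 called genes (log2, vertical axes) with histology class in the model (left) and among undifferentiated or spindle tumors (right), against the difference over all 12 tumors (log2, horizontal axes), with the line of equality. All keep their direction in the left panel, where 37 have a smaller difference.

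Control skin gave a reference level for each of the 51 genes. Its mean was nearer to the pRbp53 tumors for 29 genes and nearer to the p53 tumors for 22. The 4 control samples lay apart from the p53 tumors but not from the pRbp53 tumors for 20 genes, and apart from the pRbp53 tumors but not from the p53 tumors for 13. They lay apart from both for 8 genes and from neither for 10. The 51 genes had been chosen for a difference between the tumor groups, and the same counts were not made over all genes. The counts therefore describe these genes only. Among the 20 were 13 of the higher genes, such as Zfp945 (control mean 8.13), Riok3 (9.78), Hoxb6 (7.0), Meg3 (11.27) and Runx1t1 (5.58). For these the p53 tumors were the low group and the pRbp53 tumors overlapped skin. Kcnma1 (control mean 5.01) and Ebf1 (6.60) were above the mean of skin in each pRbp53 tumor.

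The genes that pRb controls through E2F were then followed, on 38 measured targets of the G1/S step. The motif of E2F was searched on both strands as TTTGGCGC, TTTCCCGC, TTTCGCGC or TTTGCCGC in 300 bases around each start (RefSeq, GRCm38.p6), and stood in 45.5% of the list's promoters (15 of 33) against 2.6% of all (704 of 27025). Among called genes it stood in 2 of 34 (5.88%), namely Lca5l and Prrg3, both higher; Lca5l was picked out here after the search. The promoters of a pair of genes are shown, Mcm6 as a target with several matches and Prrg3 as a called gene with 1, with the matches in capitals. In Mcm6 the first run of capitals is a pair of matches on opposite strands that overlap. Prrg3 has a second start in the table whose promoter holds no match. A match describes letters only.
Mcm6, chr1:128359656-128359955, minus strand: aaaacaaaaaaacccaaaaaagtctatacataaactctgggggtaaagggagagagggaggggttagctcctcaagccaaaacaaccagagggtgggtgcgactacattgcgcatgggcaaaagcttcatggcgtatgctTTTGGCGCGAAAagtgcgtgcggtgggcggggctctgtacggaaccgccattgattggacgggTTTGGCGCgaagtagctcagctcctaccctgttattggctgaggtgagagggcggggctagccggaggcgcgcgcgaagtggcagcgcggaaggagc
Prrg3, chrX:71962375-71962674, plus strand: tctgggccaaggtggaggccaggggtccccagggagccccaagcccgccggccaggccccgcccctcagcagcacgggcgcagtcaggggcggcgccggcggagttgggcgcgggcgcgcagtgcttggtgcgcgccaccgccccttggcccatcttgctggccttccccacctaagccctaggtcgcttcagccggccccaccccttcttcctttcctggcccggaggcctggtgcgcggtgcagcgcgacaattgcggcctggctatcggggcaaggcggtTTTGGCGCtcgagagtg

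Lists of genes were read with 1 probeset per gene over 18193 genes. Over all of these 0.0770% were called higher and 0.0824% lower, while at an unadjusted p of 0.05 the shares were 4.82% higher and 5.79% lower, with a median difference of −0.01. The methods' t-test called 12 of the 18193 genes, and 8632 had a positive and 9561 a negative difference. With shares of calls this small, 0 calls are likely in any short list. Of the 38 E2F targets, 0 were called by limma and 0 by the methods' t-test, 3 were higher and 0 lower at an unadjusted p of 0.05, and 27 had a positive difference. Their median difference was 0.35, or 0.25 with histology and −0.16 among undifferentiated and spindle tumors, so its sign turned there. Their mean level was 8.75, 9.63, 8.03, 9.09 and 8.98 in the pRbp53 tumors, inside or just above the range of 7.53 to 9.27 of the p53 tumors, and above control skin at 6.80 to 7.57. Ccne2, cyclin E2, had the largest positive value of the list: 4.65, 6.63 and 8.46 in p53 tumors and 8.25, 9.78, 6.71, 8.05 and 9.24 in pRbp53 tumors. The groups overlapped, and the difference of 1.53 (SE 0.71, adjusted p = 0.54) was 0.06 among undifferentiated and spindle tumors. Mcm6, the helicase subunit shown above and picked for its promoter, gave 0.82 (SE 0.45, adjusted p = 0.617).

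The other members of the pRb circuit were likewise not called. Of 13 measured Rb family and E2F genes, 0 were called by either test, and 2 were higher at an unadjusted p of 0.05, around a median of 0.21. Tfdp1, the partner with which E2F binds DNA, read 10.34, 12.59, 9.97, 9.92 and 13.51 in pRbp53 tumors and 8.93, 9.85 and 10.40 in p53 tumors. The spindle tumors 2 and 5 were far above the rest and the other 3 lay among the p53 tumors, with a difference of 1.52 (SE 0.61, adjusted p = 0.475). Ccnd1, cyclin D1, read 10.92, 8.84, 8.77, 10.48 and 7.70 against 10.67, 11.08 and 12.27. Its difference was −2.11 (SE 0.54, adjusted p = 0.238), −2.19 with histology and −3.09 among undifferentiated and spindle tumors, and pRbp53 tumor 1 lay among the p53 tumors. Cdkn2a, the CDK inhibitor locus of p16 and p19, differed by 1.45 (adjusted p = 0.645). None of the 10 G1 cyclins and kinases, the 7 CDK inhibitors, the 27 mitosis genes or the 12 DNA repair genes measured was called by either test, 1 cyclin or kinase being lower at an unadjusted p of 0.05 and 0 in the other 3 lists. Their medians were 0.16, 0.31, 0.03 and 0.05, in that order. With histology they were 0.07, 0.30, −0.27 and −0.14, and among undifferentiated and spindle tumors −0.37, 0.16, −0.95 and −0.55, so the sign turned for mitosis and DNA repair in both and for the G1 cyclins and kinases in the latter. The 20 signature genes, which the study chose for tumors against normal skin, gave 0 calls by either test, 0 at an unadjusted p of 0.05 and a median of −0.02, which was −0.20 with histology and −0.85 among undifferentiated and spindle tumors.

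Targets of p53 were measured in tumors that lack p53 in both groups. Of 22, 0 were called at the brightest probeset by either test, and 1 was higher and 4 lower at an unadjusted p of 0.05, around a median of −0.28, against −0.01 over all genes. With histology the median was −0.21, and among undifferentiated and spindle tumors −0.04, the same as over all genes there. Mdm2, the ubiquitin ligase of p53, was called at 1 of its 3 probesets. It read 7.93, 8.29 and 8.38 in p53 tumors and 7.83, 7.85, 7.60, 7.63 and 7.56 in pRbp53 tumors. The gap between the groups was small, and so was the difference of −0.53 (SE 0.10, adjusted p = 0.0943; with histology −0.57, adjusted p = 0.272; among undifferentiated and spindle tumors −0.55). Perp, a desmosomal protein and p53 target, differed by −4.32 (SE 1.32, adjusted p = 0.325), but by −0.28 among undifferentiated and spindle tumors.

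**Figure D5:**
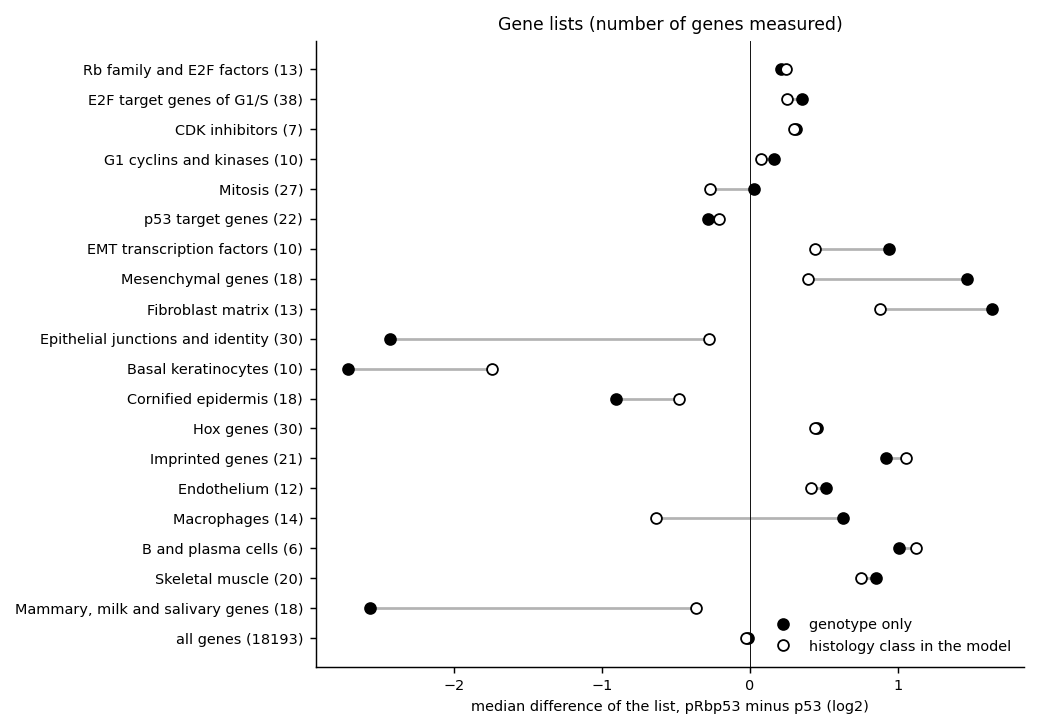
Median log2 difference of pRbp53 minus p53 tumors (horizontal axis) over the measured members of each gene list, from the model with genotype only (filled) and with histology class added (open). The median of epithelial junctions goes from −2.43 to −0.28 and that of mesenchymal genes from 1.47 to 0.39, while Hox genes have 0.45 and 0.44.

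The medians of epithelial and mesenchymal lists were far from that of all genes, and they moved with histology. All 30 measured epithelial junction genes had a negative difference and 17 were lower at an unadjusted p of 0.05, but 0 were called by either test. Their median was −2.43, against −0.28 with histology in the model and −0.22 among undifferentiated and spindle tumors. The mean level of the list was 4.85, 5.41, 4.90, 6.70 and 4.97 in pRbp53 tumors and ran from 5.06 to 9.76 in p53 tumors, so the groups overlapped. Krt18, a keratin of simple epithelia, read 7.95, 10.40 and 13.22 in p53 tumors and 4.94, 8.30, 3.90, 8.86 and 3.75 in pRbp53 tumors. The spindle tumors 1, 3 and 5 were near or below skin (4.80), and the difference of −4.53 (SE 1.17, adjusted p = 0.242) was −2.80 with histology. Dsp, the desmosomal plaque protein desmoplakin, differed by −4.01 (adjusted p = 0.539), but by −0.30 with histology. Of 10 genes of basal keratinocytes, 1 was called lower (Itga6, also by the methods' t-test) and 7 were lower at an unadjusted p of 0.05, with a median of −2.71 that was −1.74 with histology.

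On the mesenchymal side the signs were opposite. All 13 fibroblast matrix genes had a positive difference and 9 were higher at an unadjusted p of 0.05, with 0 called by either test and a median of 1.64 (0.88 with histology). Col6a2, a chain of collagen VI, read 8.39, 10.34 and 12.10 against 12.55, 12.20, 13.08, 12.57 and 13.00. All pRbp53 tumors were above all p53 tumors, but the difference of 2.36 (SE 0.50, adjusted p = 0.144) did not pass. Of 18 mesenchymal genes 8 were higher at an unadjusted p of 0.05, with a median of 1.47 that was 0.39 with histology, and of 10 EMT transcription factors 3 were, with a median of 0.94 that was 0.44. Limma and the methods' t-test called 0 in both lists. Snai1, a repressor of E-cadherin, differed by 2.20 (adjusted p = 0.406), and by −0.12 among undifferentiated and spindle tumors.

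The medians of Hox and imprinted genes were close with and without histology class in the model. Of 30 Hox genes measured, 25 had a positive difference, 11 were higher at an unadjusted p of 0.05 and 1 was called (Hoxb6, also by the methods' t-test), with a median of 0.45 (0.44 with histology, 0.23 among undifferentiated and spindle tumors). The mean level of the list was 5.72, 5.86, 5.62, 5.79 and 5.43 in pRbp53 tumors, 4.55 to 5.71 in p53 tumors and 5.69 to 5.93 in control skin, so the pRbp53 tumors lay at the top of the p53 range. Hoxc8 differed by 2.60 (adjusted p = 0.212). Of 21 imprinted genes, 17 had a positive difference, 2 were called higher by limma (Meg3 and Sgce, at a brighter probeset with 3.21, adjusted p = 0.0584) and 0 by the methods' t-test. Their median was 0.92 (1.05 with histology, 0.18 among undifferentiated and spindle tumors). The mean level of the list was 8.18, 7.60, 7.55, 8.48 and 7.31 in pRbp53 tumors and ran from 6.57 to 7.36 in p53 tumors, with pRbp53 tumor 5 inside that range. Grb10, an adaptor of the insulin receptor, had a difference of 3.08 (SE 0.86, adjusted p = 0.279), and of 1.38 among undifferentiated and spindle tumors.

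Markers of other cell types were read for the tissue that a tumor may carry. All 6 B and plasma cell genes had a positive difference and 3 were higher at an unadjusted p of 0.05, with 0 called by either test. Their median was 1.0 (1.12 with histology), and their mean level was 7.35, 6.18, 6.38, 5.89 and 5.98 in pRbp53 tumors against 4.89 to 5.56 in p53 tumors, without overlap. This held for the mean only: the groups overlapped at each of the 6 genes, whose differences ran from 0.30 (Ms4a1) to 2.19 (Jchain). The part of B cells in the level of Ebf1, a B cell factor, was not tested. Of 10 T and NK cell genes 1 was called, Cd2, an adhesion receptor of T cells, which read 3.53, 3.86 and 4.09 against 4.67, 4.33, 4.73, 4.49 and 4.50. All tumors were below control skin (5.28), and the difference of 0.73 (SE 0.12, adjusted p = 0.0475) was 0.61 with histology (adjusted p = 0.281) and 0.57 among undifferentiated and spindle tumors. Cd2 was dim, with a signal below the median of the array in every tumor. The median of that list was 0.17. For 14 macrophage genes the median was 0.63, but −0.63 with histology, and 0 were called by limma or the methods' t-test or had an unadjusted p under 0.05. For 12 endothelial genes it was 0.51, all 12 being positive and 4 higher at an unadjusted p of 0.05, with 0 called by either test. The endothelial median was 0.41 with histology and 0.20 among undifferentiated and spindle tumors.

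Skeletal muscle and milk genes were high in some tumors of 1 group. The mean level of 20 muscle genes was 4.92, 6.66, 4.55, 5.0 and 8.17 in pRbp53 tumors, 4.54 to 6.02 in p53 tumors and 12.57 to 12.81 in control skin, so pRbp53 tumors 2 and 5 were above the rest. All 18 mammary, milk and salivary genes had a negative difference and 7 were lower at an unadjusted p of 0.05, with 0 called by either test. Their median was −2.57, against −0.36 with histology. The list also holds keratins of simple epithelia such as Krt8 and Krt18, so its median does not stand for the milk genes alone. Csn3, kappa-casein, read 4.35, 10.01 and 14.28 in p53 tumors and 4.48, 3.99, 4.15, 4.32 and 4.35 in pRbp53 tumors. It was also high in control skin 3, at 10.72. It was low in all pRbp53 tumors and spread widely over the p53 tumors, with a difference of −5.43 (SE 1.36, adjusted p = 0.222). The difference of Csn3 was −3.72 with histology and −4.16 among undifferentiated and spindle tumors. That of Csn2 was −4.72 (adjusted p = 0.437), and −2.88 and −4.31 in these fits. With Csn2 as a covariate 21 probesets were called, 18 of the 89 among them. The part of these tissues in the other differences was not tested beyond these fits. Xist, the RNA of the inactive X, was low in some tumors of both groups (5.72, 11.66 and 12.19 against 5.64, 12.03, 9.26, 11.74 and 5.26), and 81 probesets were called with Xist as a covariate.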

How the data were processed

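The authors hybridised tumor and skin RNA to Affymetrix MOE430 2.0 arrays and made the values with RMA (background correction, quantile normalization, summary per probeset). The deposited values are log2 signal intensities, 1 column per sample, and the version of RMA is not given in the sources used here. RMA draws all arrays to 1 distribution, so a shift shared by most genes would be removed. The number of arrays limits the precision, and no count of reads applies. All 16 columns belong to labelled samples, and 0 other columns were used.

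Of 45101 probesets, 64 array controls were left out and 45037 tested. The array annotation gave 1 symbol for 34945, several for 932 and none for 9160, and 34741 of the first were matched to RefSeq. For lists each of 18193 genes was read at its probeset with the highest mean. Lists held 739 genes, of which 690 were measured.

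A linear model was fitted to the 12 tumors with limma 3.58.1 (R 4.3.3; empirical Bayes, two-sided, Benjamini-Hochberg over all 45037 probesets), and a probeset was called at an adjusted p of 0.1. A called gene was read at its probeset with the smallest p. Named were Rb1, up to 15 called genes each way with the largest difference, and up to 3 members of each list, plus called list members; genes outside this are marked as picked after their values were seen. Members and lists were chosen with earlier results of these data known. Tests were run on simulated data first. Alternatives were the methods' t-test, other scalings, weights, covariates and subsets of tumors, fits without each tumor, and 2 alternatives added after seeing the data. Motifs were read with Python 3.11.15. List members that no probeset measured alone are left out.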

Additional observations from a re-analysis of the deposited data

Results flagged for a closer look

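Of 35 genes looked at in both groups (70 groups of tumors), 4 had 1 tumor far from the rest of its group by Dixon's criterion, which chance gives in about 1 of 20 groups. Zfp942 was 3.48 in p53 tumor 2, a poorly differentiated tumor, while the other p53 tumors lay between 3.10 and 3.23. Zfp945 was 4.32 in the same p53 tumor 2, below 5.10 to 5.63 in the other p53 tumors. Runx1t1 was 5.01 in p53 tumor 6, the spindle cell carcinoma of that genotype, above 3.12 to 3.57 in the others. Fgd6 was 6.95 in pRbp53 tumor 4, the mixed tumor of that genotype, above 5.80 to 6.07 in the others. For Zfp942, Zfp945 and Runx1t1 the deviating tumor still lay outside the range of the other genotype, and Fgd6 is the gene whose groups overlapped.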

How the results depend on the processing

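Of the alternatives run, none turned the direction of a called probeset where it was tested, and the number of calls was what moved. The alternatives reused the tumors on which the probesets had been chosen, or part of them. A kept direction was therefore likely beforehand and is not an independent check. Against 89 called probesets, there were 468 with control skin in the fit (all 16 arrays), 288 with array weights and 261 without the mixed tumors. There were 54 with histology class, 13 with histological subtype, 31 without poorly differentiated tumors, 21 with Csn2 as a covariate, 56 by the methods' t-test with equal variances and 25 with unequal, 57 at an adjusted p of 0.05 and 27 with 1 probeset per gene. The 2 alternatives chosen after seeing the data gave 7 without the tumors high in Csn2 and 74 without the genes of chromosome 17. Leaving out 1 tumor in turn gave 47 (without p53 tumor 2) to 216 (without p53 tumor 6). Other settings stayed within 1.5 times: 84 with quantile normalization, 87 with median centring, 91 with a trended and robust fit, 102 with the actin 3′ to 5′ difference as a covariate, 91 without p53 tumor 7 and 88 among brighter probesets. The difference of Rb1 moved from −0.36 to −0.79 among mixed tumors, 1 pRbp53 against 2 p53. It moved toward 0 in other settings: −0.004 among undifferentiated and spindle tumors, −0.10 with Csn2 as a covariate and −0.12 without the tumors high in Csn2. The cause of these moves was not tested, beyond the smaller number of tumors or probesets in the subsets. Tumors share replicate numbers across the genotypes, but the numbers do not pair them: the deviations of same-numbered tumors correlated at 0.17, 0.02, 0.06, 0.25 and −0.05, and 2 of 10 tumors correlated best with their own number. With the replicate number as a block 35 probesets were called. The number of arrays and their signal over background limit dim genes such as the second probeset of Rb1.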
